A study of Rattus norvegicus with 4 samples.

Results

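Sodium pump and calcium transport genes were described in the cortex of the stroke hemisphere, in rats given estradiol and in rats given placebo. The 7 genes are Atp1b1 and Atp1b2 of the sodium pump, the plasma membrane calcium pumps Atp2b1 and Atp2b2, the calcium pump of the endoplasmic reticulum Atp2a2, and the sodium-calcium exchangers Slc8a1 and Slc8a2. Members were the probe sets whose only gene symbol in the array's annotation was 1 of these names, which gave 23 of 8740 probe sets that are not controls and 7 of 4736 named genes. The rule used gene names alone.

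Both groups consisted of ovariectomised female rats in which the middle cerebral artery was closed for 2 h with a filament inside the vessel. The estradiol group had received 17beta-estradiol replacement and the placebo group had not, as the labels and the design text state. Each group had 2 Affymetrix GeneChips of the rat U34 set (array A), which measure transcripts with sets of short probes. RNA of 3 animals was pooled for each array, so that 6 animals stand behind a group, and pools are numbered 1 and 2 within estradiol and within placebo. The arrays' codes carry a 6, while the design text names tissue taken at 6 and 24 h, and no label gives the time of these 4 arrays in words. Strain, age and dose are not stated in those sources. Arrays of unoperated or contralateral cortex were not analysed here.

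The sodium pump moves sodium out of the cell and potassium into it at the cost of ATP. It consists of a catalytic alpha subunit and a beta subunit that is needed for folding and delivery to the membrane. The sodium gradient drives the sodium-calcium exchangers, which carry calcium out of the cell and can run backwards when sodium builds up inside. The plasma membrane calcium pumps export calcium directly, and the pump encoded by Atp2a2 returns it to the endoplasmic reticulum. In ischaemic brain tissue, loss of ATP stops the pumps, and sodium and calcium enter neurons.

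Values are linear intensities, which cannot be compared between probe sets. Fold changes are estradiol minus placebo on the log2(intensity + 16) scale, with the standard error (SE) of the limma fit, and SD is over the 2 pools of a group. Probe sets whose mean intensity over the 4 arrays was under the 40th percentile of 37.5 were not tested. Of the 23 member probe sets, 19 passed this filter, at least 1 for each of the 7 genes. The member nearest above the filter had a mean of 49.3 and the nearest below it 19.2. Probe sets of a gene are named in order of their mean intensity.

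None of the member genes differed between estradiol and placebo past the threshold. Of the 19 member probe sets, 0 were called in limma, and each had a Benjamini-Hochberg adjusted p of 0.998. The call rate over all 5244 tested probe sets was 0% (0 called). At an unadjusted p below 0.05 in limma there were 0 members, beside 161 probe sets or 3.07% of all tested. Of the members, 9 had log2 fold changes above 0 and 10 below, with a median of -0.05, and the median over all tested probe sets was 0.01. The members' median was 0.04 after quantile normalization and -0.17 with 1 value a gene. Both estradiol pools lay above both placebo pools for 3 members, beside 15.4% of all tested probe sets, and below them for 1 member, beside 14.3%. Together the groups did not overlap for 4 members of 19, beside 29.7% of all tested probe sets. With 2 pools a group, the p-values rest on the spread between these pools, which limma moderates by that of all tested probe sets. They do not measure the spread between single animals.

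The placebo pools differed by more than the estradiol pools for 12 of the 19 members, but the largest difference between pools of a group, 2.00 (log2) for X68812_s_at of Slc8a1, lay between the estradiol pools. Placebo 2 was the highest of the 4 arrays for 12 of the 19 members, or 63.2%, and for 25.8% of all tested probe sets. Placebo 1 was the lowest for 10 members, or 52.6%, beside 29.8% of all, and the highest for 0. The size of the difference between the placebo pools had a median of 0.45 (log2) over the members and 0.27 over all tested probe sets. The size of the members' fold change between treatments, a difference of means of 2 pools, had a median of 0.26, beside 0.18 over all tested probe sets. Between the estradiol pools the size of the difference had a median of 0.25 for the members and 0.26 for all. The members share arrays and several share a gene, so these shares are descriptions.

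**Figure D1:**
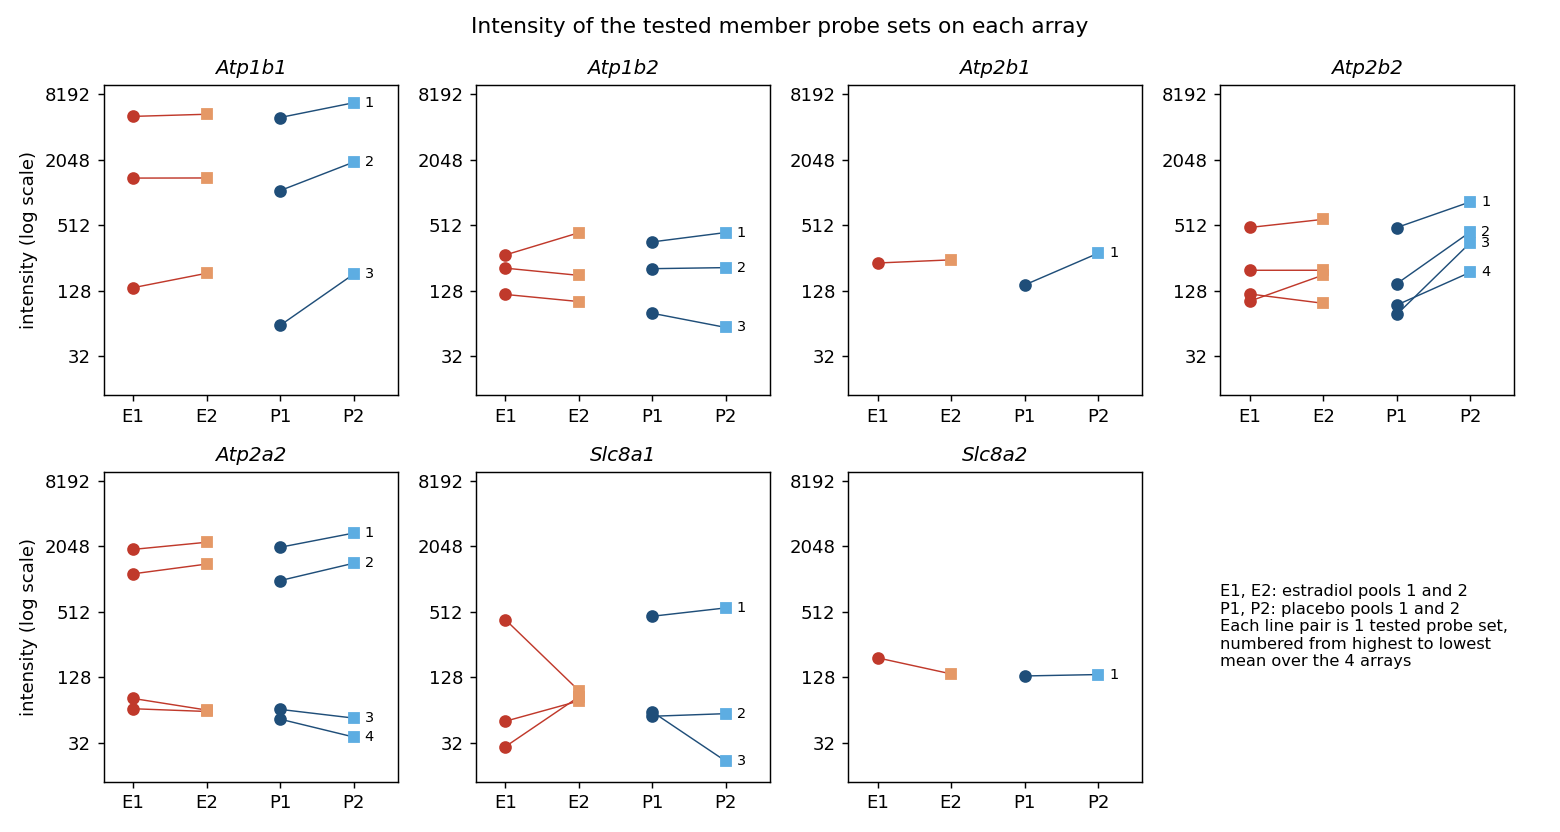
Intensity of the 19 tested member probe sets, on a log axis, by array (E1 and E2, estradiol pools; P1 and P2, placebo pools); each pair of lines is 1 probe set, numbered from highest to lowest mean within its gene, and the lines only join the points of a probe set. Placebo 2 is the highest array for 12 of the 19 probe sets, among them all 4 of Atp2b2.

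Atp1b1 encodes the beta 1 subunit, the main beta subunit of neurons. Its probe set rc_AI112173_at had intensities of 5133 and 5371 in estradiol 1 and 2, against 5012 and 6852 in placebo 1 and 2. The estradiol values lay between the placebo values. The means were 5252 ± 168 with estradiol and 5932 ± 1301 with placebo (SD, n = 2 each). The log2 fold change was -0.16 ± 0.21 (SE), and its 95% interval ran from -0.65 to 0.33. Its sign turned to 0.04 after quantile normalization.

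The probe set rc_AI230614_s_at of Atp1b1 had 1388 and 1391 with estradiol, against 1064 and 1946 with placebo. Here too the estradiol pools, which lay close together, fell inside the range of the placebo pools, and the log2 fold change was -0.05 ± 0.29 (SE). The third, X63375exon_at, had 136 and 184.5 with estradiol, against 61.1 and 181 with placebo. Only placebo 1 stood apart, and the log2 fold change was 0.50 ± 0.42 (SE). Without placebo 1 the 3 values of Atp1b1 were -0.38, -0.48 and -0.17, and without placebo 2 they were 0.07, 0.38 and 1.18.

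Atp1b2 encodes the beta 2 subunit, known as the adhesion molecule on glia and characteristic of astrocytes. Its probe set J04629_at had 272 and 436 with estradiol, against 359 and 438 with placebo. The groups overlapped, with estradiol 1 lowest, and the log2 fold change was -0.19 ± 0.27 (SE) or 0.13 without estradiol 1. D90048exon_g_at had 206 and 176.5 with estradiol, against 203 and 208 with placebo, and its log2 fold change was -0.10 ± 0.21 (SE). All 4 values of that probe set lay within 0.22 on the log2 scale.

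The third probe set of Atp1b2, D90048exon_at, had 118 and 101 with estradiol, against 79.0 and 58.5 with placebo. Both estradiol pools lay above both placebo pools. The means were 109.5 ± 11.7 with estradiol and 68.8 ± 14.5 with placebo (SD, n = 2 each). The log2 fold change was 0.57 ± 0.26 (SE), and its 95% interval ran from -0.03 to 1.18. It lay between 0.40 and 0.75 with any 1 array left out. This was the highest fold change among the members, and it did not pass in limma (adjusted p = 0.998). The other probe sets of Atp1b2 had values below 0, so the gene's probe sets differed by 0.77 from lowest to highest.

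Among the plasma membrane calcium pumps, Atp2b2 had placebo 2 highest and placebo 1 lowest in all of its tested probe sets. Atp2b2 encodes a fast calcium pump of neurons. J03754Complete_seq_at had 487 and 579 with estradiol, against 487 and 838.5 with placebo. The probe set rc_AA955388_s_at had 197 in both estradiol pools, against 148 and 443 with placebo. Placebo 2 was set apart from the other 3 arrays in each.

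The probe set rc_AA943784_s_at of Atp2b2 had 102 and 178 with estradiol, against 77.1 and 353 with placebo. The remaining one, L05557cds_g_at, had 119 and 97.6 with estradiol, against 94.1 and 189 with placebo. In all 4 probe sets placebo 2 was highest and placebo 1 lowest. That order was found in 8 of the 19 members, and in 9.97% of all tested probe sets.

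The log2 fold changes of the 4 Atp2b2 probe sets lay between -0.37 and -0.26, with SEs of 0.28 to 0.58. The widest 95% interval, that of rc_AA943784_s_at, ran from -1.64 to 1.06. Leaving out placebo 1 gave -0.64, -1.11, -1.28 and -0.72, and leaving out placebo 2 gave 0.12, 0.38, 0.70 and 0.17. All 4 values were thus below 0 without placebo 1 and above 0 without placebo 2. With an estradiol pool left out, rc_AA943784_s_at turned to 0.07 without estradiol 1, and the other Atp2b2 probe sets stayed below 0. The 4 probe sets measure 1 gene on the same 4 arrays and are not replicates of a condition.

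Atp2b1 encodes the plasma membrane calcium pump found in most cell types. L04739cds_s_at had 229 and 245 with estradiol, against 144 and 282 with placebo. The estradiol pools again lay between the placebo pools, and the log2 fold change was 0.21 ± 0.31 (SE), with -0.24 without placebo 1 and 0.66 without placebo 2. The other 2 probe sets were not tested. The probe set rc_AI172499_at had 9.6 and 20.1 with estradiol, against 6.8 and 40.4 with placebo. The probe set rc_AI103671_at had 3.3 and 2.9 with estradiol, against 5.6 and 13.8 with placebo. The last was at background on all 4 arrays and the other on all but placebo 2, where background is the highest of 23 control probe sets for foreign transcripts, 33.9 and 37.8 on the estradiol arrays and 37.8 and 30.1 on the placebo arrays.

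The 250 bases before the annotated start of a gene are printed for Atp2b2, Atp1b2 and Atp2a2. Probe sets of Atp2b2 shared their highest and lowest arrays, and those of Atp1b2 and Atp2a2 differed among themselves, but this did not decide the choice. RefSeq start-site windows (assembly GRCr8) were found for 6 of the 7 genes, and in 3 of these the 250 bases lay outside the gene's annotated span. Only those 3 windows are printed. They lie at chr4:148763654-148763903 on the minus strand for Atp2b2, at chr10:54823709-54823958 on the minus strand for Atp1b2 and at chr12:39733269-39733518 on the plus strand for Atp2a2. Capitals mark GGTCA, the core motif of estrogen response elements, read on both strands.
Atp2b2: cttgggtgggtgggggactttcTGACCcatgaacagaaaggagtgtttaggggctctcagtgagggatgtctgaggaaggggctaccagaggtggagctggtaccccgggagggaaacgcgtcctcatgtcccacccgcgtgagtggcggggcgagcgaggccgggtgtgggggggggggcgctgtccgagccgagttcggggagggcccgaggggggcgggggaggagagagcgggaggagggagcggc
Atp1b2: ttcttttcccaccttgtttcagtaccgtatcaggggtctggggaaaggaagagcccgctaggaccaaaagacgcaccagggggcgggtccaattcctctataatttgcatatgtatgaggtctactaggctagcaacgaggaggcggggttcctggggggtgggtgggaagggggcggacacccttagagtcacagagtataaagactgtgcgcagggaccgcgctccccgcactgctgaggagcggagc
Atp2a2: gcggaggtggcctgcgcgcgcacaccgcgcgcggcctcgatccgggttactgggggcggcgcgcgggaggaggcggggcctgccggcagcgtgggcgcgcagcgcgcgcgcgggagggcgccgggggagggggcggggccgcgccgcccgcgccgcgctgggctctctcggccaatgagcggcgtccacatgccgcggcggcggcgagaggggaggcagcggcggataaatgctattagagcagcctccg
The 3 windows had a GC content of 69.2%, 58.0% and 80.0% for Atp2b2, Atp1b2 and Atp2a2. The motif was in 2 of the 6 member windows, Atp2b2 and Slc8a2, and in 35.4% of the 33469 windows of that length in the table. A match of letters is a description and does not show binding.

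Atp2a2 encodes the calcium pump that refills the endoplasmic reticulum, the store-filling member among genes that otherwise act at the cell surface. AA799276_at had 1925 and 2240 with estradiol, against 2014 and 2721 with placebo. The groups overlapped, with placebo 2 highest, and the log2 fold change was -0.17 ± 0.22 (SE). The probe set rc_AA957510_s_at had 1147 and 1410 with estradiol, against 993.5 and 1435 with placebo, and its log2 fold change was 0.09 ± 0.24 (SE). Pool 2 was higher than pool 1 in both groups for both of these probe sets.

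The remaining Atp2a2 probe sets ran the other way between pools. J04024_at had 81.7 and 63.9 with estradiol, against 64.8 and 53.9 with placebo, and its log2 fold change was 0.23 ± 0.28 (SE). The probe set rc_AA800212_at had 65.7 and 62.0 with estradiol, against 52.7 and 36.1 with placebo. Both estradiol pools of the last one lay above both placebo pools, with a log2 fold change of 0.42 ± 0.31 (SE). Placebo 2 was the lowest array in these 2 probe sets and the highest in the other 2.

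The exchanger gene Slc8a1 had the lowest fold change of all members, and it came from 1 pool. X68812_s_at had 435 and 96.5 with estradiol, against 467 and 557 with placebo. Estradiol 2 lay far below the other 3 arrays, which were close together. The means were 266 ± 239 with estradiol and 512 ± 63.9 with placebo (SD, n = 2 each). The log2 fold change was -1.22 ± 0.55 (SE), and its 95% interval ran from -2.51 to 0.06. It was -0.22 without estradiol 2 and -2.23 without estradiol 1, where its adjusted p in limma was 0.772.

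Other probe sets of Slc8a1 did not share the low value of estradiol 2. U04934_s_at had 50.4 and 77.4 with estradiol, against 56.0 and 59.2 with placebo, and its log2 fold change was 0.10 ± 0.30 (SE). S67769_s_at had 29.4 and 84.6 with estradiol, against 61.5 and 21.6 with placebo, with estradiol 1 and placebo 2 at background and a log2 fold change of 0.32 ± 0.51 (SE). Estradiol 2 was the highest array in both. X68191_at and U04937_s_at lay at background on every array, between 6.0 and 18.5, and were not tested.

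Slc8a2 encodes the exchanger that is found mainly in brain. Its only probe set, U08141_at, had 193 and 137.5 with estradiol, against 132 and 136 with placebo. Estradiol 1 was set apart, and estradiol 2 lay close to both placebo pools. The log2 fold change was 0.26 ± 0.24 (SE), and 0.04 without estradiol 1.

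**Figure D2:**
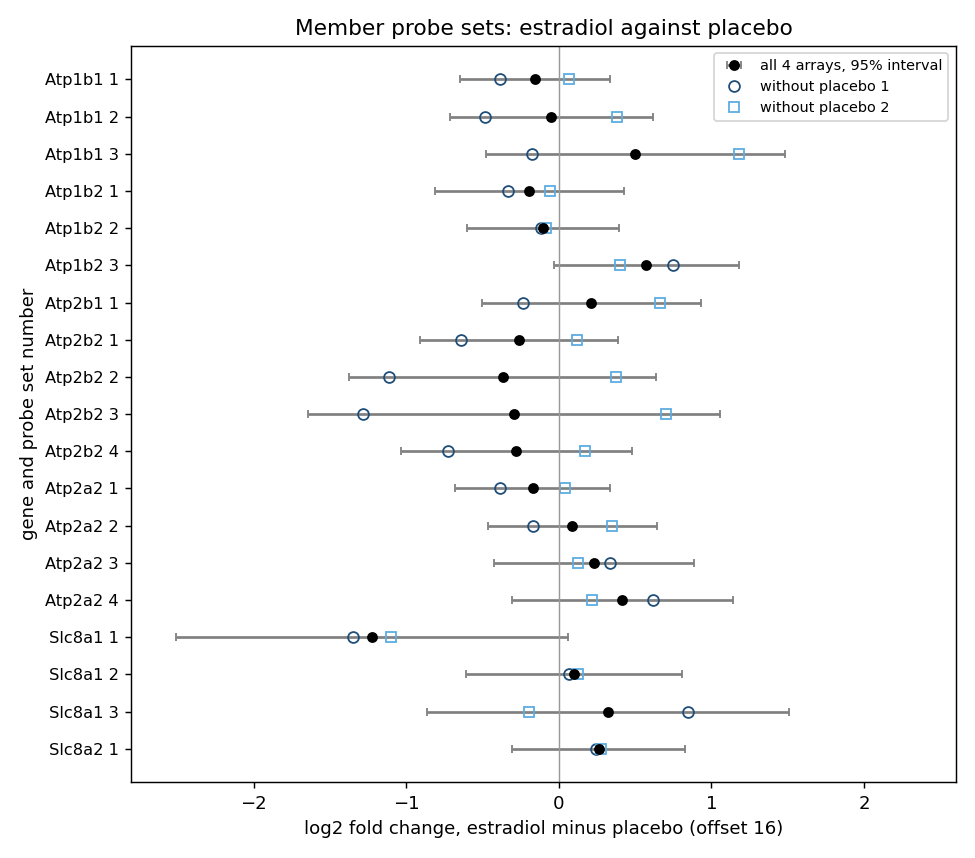
Log2 fold change, estradiol minus placebo, of the 19 tested member probe sets (filled points, with 95% intervals of the limma fit over all 4 arrays), and the same value without placebo 1 (open circles) and without placebo 2 (open squares). Every interval includes 0, and the 4 Atp2b2 values run from -1.28 to -0.64 without placebo 1 and from 0.12 to 0.70 without placebo 2.

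Probe sets of a gene disagreed in sign for 4 of the 5 genes with more than 1 tested probe set, Atp1b1, Atp1b2, Atp2a2 and Slc8a1, and agreed for Atp2b2. The probe sets of Atp1b1 spanned 0.66 on the log2 scale, those of Atp2a2 0.59, those of Slc8a1 1.55 and those of Atp2b2 0.11. Only 5 of the 19 members kept their sign with any 1 array left out. They were D90048exon_at of Atp1b2, J04024_at and rc_AA800212_at of Atp2a2, X68812_s_at of Slc8a1 and U08141_at of Slc8a2.

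Leaving out single arrays moved the members as a group. Without placebo 1, 13 of 19 had values below 0, with a median of -0.24, and without placebo 2, 15 of 19 had values above 0, with a median of 0.17. The median over all tested probe sets was -0.01 and 0.02 in these fits. Without estradiol 1, 11 of 19 had values above 0, with a median of 0.07, and without estradiol 2, 12 of 19 had values below 0, with a median of -0.15. X68812_s_at of Slc8a1 had the smallest unadjusted p in limma of these fits, 0.000294 without estradiol 1, where it was the 1 member below 0.05, beside 3.74% of all probe sets. Without placebo 1, 5 members had an unadjusted p below 0.05 in limma, the 4 Atp2b2 probe sets and D90048exon_at of Atp1b2, beside 3.93% of all probe sets. Without placebo 2 these were 1 probe set each of Atp1b1 and Atp2b1, beside 4.27%. No member was called in any of these fits. A fit with 1 array in a group assumes that it varies like the arrays of the other group.

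Neuron markers were lower in placebo 1 as well. All 10 tested genes of that list were lower in placebo 1 than in placebo 2, with a median of -0.44. In the same comparison 15 of 19 members were lower, with a median of -0.43. Of all tested probe sets, 54.6% were lower in placebo 1, with a median of -0.04. The summed intensity of the 11 measured neuron markers was 11088 and 11898 with estradiol, against 10234 and 13516 with placebo. Slc17a7, which marks excitatory cortical neurons, was at background on every array. Choroid plexus and meninges markers ran the other way, with 9 of 9 higher in placebo 1 and sums of 2449.5 and 7123 with estradiol, against 13121 and 1439 with placebo. Sums of this kind, here and for the lists below, are led by the brightest probe sets. Ttr alone had 165 and 4312 with estradiol, against 8034 and 74.3 with placebo.

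Oligodendrocyte markers were higher in placebo 1 for 5 of 5 genes, with sums of 16351 and 12394 with estradiol, against 20388 and 13094 with placebo. Of 7 astrocyte markers, 2 were lower in placebo 1, with sums of 11042 and 10822 with estradiol, against 12123 and 11361 with placebo. The part of these cell types in the members' values was not tested. In pooled tissue, fewer cells of a type and less RNA per cell cannot be told apart. The 3' to 5' ratio of the hexokinase control, which reflects RNA integrity, was 3.27 and 4.35 with estradiol, against 3.64 and 3.08 with placebo. For the GAPDH control it was 1.38 and 1.30 with estradiol, against 1.45 and 1.42 with placebo. For the beta-actin control it was 1.28 and 1.58 with estradiol, against 1.39 and 1.47 with placebo. The part of RNA integrity was not tested either.

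**Figure D3:**
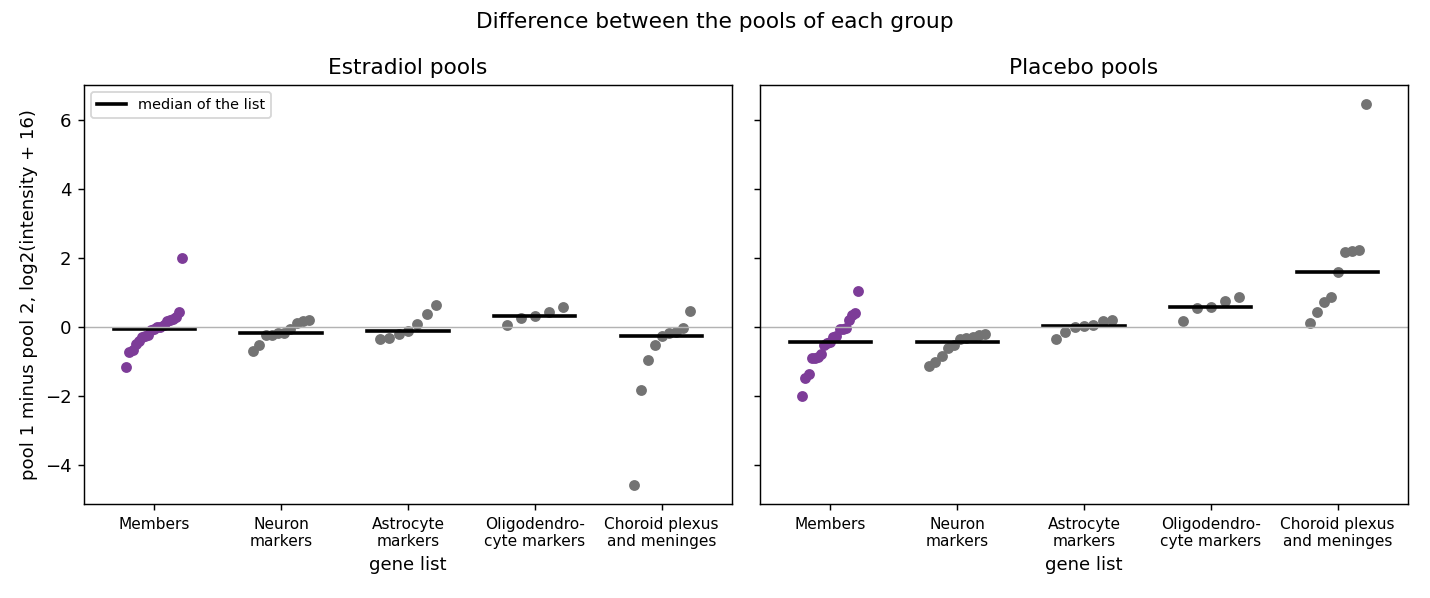
Pool 1 minus pool 2 in log2(intensity + 16) within the estradiol group (left) and the placebo group (right), for the 19 tested members and the tested markers of 4 cell type lists, 1 point per probe set with the list's median as a bar. In the placebo group the members' median is -0.43 and that of neuron markers -0.44, while choroid plexus and meninges markers have a median of 1.61.

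Arrays were alike in overall level, with median intensities of 57.2 and 57.8 with estradiol, against 55.0 and 56.8 with placebo. The share of probe sets above background was 58.9 to 64.6%. Of 11 measured neuron markers, 9 were above background on every array, among them Snap25, Syn1 and Thy1. Markers of striatum were present too, with 4 of 7 tested genes higher in both estradiol pools, Tac1, Penk, Drd1 and Rgs9. Rgs9 was above background in estradiol 2 alone and passed the filter only through that array. Its place among the 4 of 7 therefore gives no support. Adcy5 had a log2 fold change of 0.31, Pdyn -0.16 and Adora2a -0.03, each with overlapping groups, and Drd2 was at background on every array. The list's sums were 2569 and 2344 with estradiol, against 1742.5 and 1714 with placebo. Of all tested probe sets, 15.4% were higher in both estradiol pools. Between the placebo pools, 5 of the 7 striatum genes were lower in placebo 1. Blood cell markers were lower in both estradiol pools for 5 of 5 genes, beside 14.3% of all tested probe sets, with a median log2 fold change of -0.88 and sums of 1872 and 4249 with estradiol, against 6173 and 5319 with placebo. All 7 tested vascular cell markers had fold changes below 0, and 3 of them were lower in both estradiol pools. The part of these cell types in the members' values was not tested.

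Other genes of the sodium pump gave no call in limma. Of 13 listed genes, 5 were measured and 3 tested, all with values below 0. The median over the list's 4 tested probe sets was -0.14. Fxyd1, which encodes phospholemman, a regulator of the pump, had 417 and 394 with estradiol, against 559 and 449 with placebo, and its log2 fold change was -0.30 ± 0.21 (SE). Both estradiol pools lay below both placebo pools, with placebo 1 highest. The groups overlapped for the dimmer rc_AA799645_g_at of Fxyd1, which had 39.5 and 107.7 with estradiol, against 162.2 and 37.2 with placebo. Atp1b3, the beta 3 subunit, had -0.04 and Fxyd4, another regulator, -0.02.

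Of the other calcium pumps and exchangers, 8 of 13 genes were measured and 6 tested, 1 above 0 and 5 below. No gene was called, and the median over 8 tested probe sets was -0.12. Atp2b4, a further plasma membrane calcium pump, had 27.1 and 86.1 with estradiol, against 102 and 104 with placebo. Estradiol 1 lay at background, so the log2 fold change of -0.84 ± 0.41 (SE) came mainly from that pool and was -0.22 without it. Atp2b3, which like Atp2b2 is characteristic of neurons, had 189.5 and 247 with estradiol, against 140.5 and 245 with placebo. Its log2 fold change was 0.20, and -0.16 without placebo 1. The dimmer M96626_at and M96626_g_at of Atp2b3 had -0.05 and -0.30, each with overlapping groups. Slc24a2, a potassium-dependent sodium-calcium exchanger, had -0.35 and 0.03 without placebo 2, and the exchanger gene Slc8a3 had -0.06.

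Genes of calcium release and buffering numbered 15 of 21 measured and 12 tested, 4 above 0 and 8 below, with 0 called and a median of -0.05 over 20 tested probe sets. Calb1, which encodes the calcium buffer calbindin, had 277 and 265 with estradiol, against 125 and 279 with placebo. Only placebo 1 was low, and the log2 fold change of 0.49 ± 0.34 (SE) became -0.04 without it. Casq2, a calsequestrin that binds calcium in internal stores, had 48.6 and 53.4 with estradiol, against 78.6 and 89.5 with placebo, and its log2 fold change was -0.58 ± 0.27 (SE). Both estradiol pools were lower there, and the value lay between -0.66 and -0.50 with any 1 array left out. Casq1 had -0.25 and the chaperone gene Canx 0.05, and both turned in sign with 1 array left out, to 0.17 for Casq1 without estradiol 2 and -0.26 for Canx without estradiol 1. These are the probe sets of highest mean, and a pair of others with an unadjusted p below 0.05 was chosen after their values were seen. L18889_at of Canx had 198 and 149 with estradiol, against 280 and 254 with placebo. Its fold change on the log2 scale, -0.59 ± 0.23 (SE), stayed between -0.78 and -0.40 with any 1 array left out. The other tested probe sets of Canx had values from -0.02 to 0.09, each with overlapping groups. U38812_s_at of Itpr1, a calcium release channel of internal stores, had 12.2 and 34.2 with estradiol, against 63.6 and 89.5 with placebo, and its log2 fold change was -1.28 ± 0.40 (SE). Both estradiol pools were lower in each, and for the Itpr1 probe set both were at background. That probe set had means of 23.2 with estradiol and 76.55 with placebo, so it passed the filter only through the placebo arrays. It was also chosen by its p, so its fold change is a description only. The brighter J05510_at of Itpr1 had -0.03 with overlapping groups, and each adjusted p in limma was 0.998. The untested probe sets of Itpr1 were also lower in both estradiol pools, which were at background in each. Their order therefore gives no support, and 14.3% of all tested probe sets were lower in both estradiol pools. U38653_s_at had 4.1 and 4.1 with estradiol, against 43.1 and 43.0 with placebo. M64698_s_at had 15.3 and 10.9, against 21.9 and 38.9. M64699_s_at was at background on every array.

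Of the other transporters that hold ion gradients, 21 of 24 were measured and 14 tested, 7 above 0 and 7 below, with 0 called. The median over 23 tested probe sets was -0.11, and with 1 probe set a gene it was 0.01. Slc12a5, the potassium-chloride exporter of neurons, had 835 and 814 with estradiol, against 400.5 and 790 with placebo, and its log2 fold change was 0.54 ± 0.31 (SE). This value rested on placebo 1, without which it was 0.06. Slc4a4, a sodium bicarbonate cotransporter, had 0.36 and 0.01 without placebo 1. Slc4a2, an anion exchanger, had -0.36 and 0.10 without placebo 1, the array on which it stood at 239 against 118 in placebo 2. The dimmer J05166_at of Slc4a2 had -1.22 and -0.13 without placebo 1, the only array on which it was above background. Atp4a, the catalytic subunit of the gastric proton pump, had -0.35, between -0.47 and -0.24 with any 1 array left out.

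The probe sets nearest to a member in profile were sought by the root mean square difference of log2 values, each centred on its mean over the 4 arrays. This was done for members whose leading probe set ranged over at least 0.5. For Atp2b2 they belonged to Sh3gl2, which encodes the synaptic vesicle protein endophilin A1, at 0.0303 and Phax at 0.0531. Sh3gl2 had 147 and 170 with estradiol, against 145 and 267 with placebo, so placebo 2 was highest there as well. For Slc8a2 they were Gsk3a at 0.00551 and Gipc1 at 0.0192, and for Atp2b1 Tubgcp6 at 0.0345 and Fbxo38 at 0.0457. For Atp1b2 they were Bpifb3 at 0.0351 and Ercc8 at 0.0364, and for Slc8a1 Anp32a at 0.166 and Gabbr1 at 0.235. Some of these values were at background: Bpifb3 (28.5) and Ercc8 (32.3) in estradiol 1, Anp32a (16.8) and Gabbr1 (4.5) in estradiol 2, and Tubgcp6 (32.1) in placebo 1. With 4 arrays and 4323 to 4326 candidates, close profiles of this kind describe these arrays only.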

How the data were processed

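The members and gene lists were chosen with earlier results of these data known. The authors deposited 1 linear intensity per probe set and array, already scaled to a common level, with means of 150.18 to 150.2 after 2% of values were trimmed at each end. The sources used here do not name the program behind the values. RNA pooling and biotin labelling are described in the series design text. Columns were matched to groups by the sample titles. Control probe sets, 59 of 8799, did not enter the fit. Gene names came from the array's platform annotation, with identifiers checked in a RefSeq table (assembly GRCr8), which changed 0 symbols.

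Intensities were transformed as log2(value + 16). The 5244 probe sets above the 40th percentile were tested together with limma 3.58.1 in R 4.3.3 (lmFit, eBayes with trend, two-sided, 2 residual and 5.63 prior degrees of freedom), with Benjamini-Hochberg adjustment and a threshold of 0.05. The step was tested on simulated data whose known changes were larger than any fold change of the members. That test does not cover changes of the members' size. Tables and plots used Python 3.11.15, pandas 2.3.3 and matplotlib 3.10.9. Alternatives were offsets of 1 and 64, no filter or the 60th percentile, quantile normalization, median centring, no trend, a replicate block and each array left out. The number of arrays limits the precision. Named genes were all members, the 2 highest and 2 lowest fold changes of each of 4 pathway lists, by the probe set of highest mean, and the 2 nearest profiles of a member.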

Additional observations from a re-analysis of the deposited data

How the results depend on the processing

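No probe set was called under any of the 12 alternatives run in limma. Probe sets with an unadjusted p below 0.05 numbered 337 when none were filtered out and 89 when those under the 60th percentile were, beside 161 with the settings reported. With the replicate block it was 210 and 0 were called. Nothing states that equal pool numbers share a litter or day, and the differences between pools 1 and 2 in the groups correlated at 0.0363 over the tested probe sets. Of 148 member values under settings that kept all arrays, 1 changed sign, rc_AI112173_at of Atp1b1 with quantile normalization (0.0396). The list median of calcium release and buffering was -0.114 with no filter, and that of other ion gradient transporters 0.0082 with 1 value a gene. The median of the members was 0.0396 with quantile normalization, -0.158 with the filter at the 60th percentile and -0.172 with 1 value a gene. The causes were not tested.

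With 1 array left out, 17 of 76 member values changed sign. For Atp1b1 they ran from -0.383 to 0.0668 (rc_AI112173_at), -0.481 to 0.380 (rc_AI230614_s_at) and -0.174 to 1.18 (X63375exon_at). For Atp1b2 they ran from -0.204 to 0.0001 (D90048exon_g_at) and -0.518 to 0.131 (J04629_at), and for Atp2b1 from -0.235 to 0.663. For Atp2b2 they ran from -0.643 to 0.1225 (J03754Complete_seq_at), -0.725 to 0.169 (L05557cds_g_at), -1.28 to 0.701 (rc_AA943784_s_at) and -1.11 to 0.376 (rc_AA955388_s_at). For Atp2a2 they ran from -0.387 to 0.0438 (AA799276_at) and -0.172 to 0.352 (rc_AA957510_s_at), and for Slc8a1 from -0.250 to 0.898 (S67769_s_at) and -0.148 to 0.344 (U04934_s_at). The median of the members ran from -0.235 to 0.169. List medians ran from -0.295 to -0.0222 for other sodium pump genes, -0.146 to -0.0414 for other calcium pumps and exchangers, -0.198 to -0.0274 for calcium release and buffering, and -0.188 to 0.0289 for other ion gradient transporters. Which array was left out decides these values, with 2 arrays a group.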
